A study of Mus musculus with 12 samples.

Results

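The genes described here are 8 genes of the cell death machinery: the caspase genes Casp1, Casp2, Casp6, Casp8, Casp9 and Casp12, the apoptosome gene Apaf1 and the gasdermin gene Gsdmd. The deposited table lists them as CASP1, CASP2, CASP6, CASP8, CASP9, CASP12, APAF1 and GSDMD. They were taken by symbol from the 16425 genes of a table of RNA levels in mouse embryonic fibroblasts (MEFs), cultured cells from mouse embryos. They were selected on a view of these same levels under both guides, so the guide differences of these 8 genes are given as a description and not as a test. The table holds 6 libraries of wild-type MEFs, all kept for 24 h in 0.5 µM doxorubicin, which breaks DNA and so activates the transcription factor p53. In 3 of them the cells had been infected with the guide RNA called sg10, directed at the p53 response element of the noncoding RNA gene Pvt1 (the Pvt1 element guide of the plots). In the other 3 they carried sgtom, a control guide with no target. The series has 12 samples in 4 groups. The untreated groups of both guides were not analysed here, so no value below shows what doxorubicin did. The series text speaks of biological replicates and the labels number them, without saying how the cultures were started or what a shared number stands for. Libraries with equal numbers deviated together between the guides, and are called a pair.

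Caspases are proteases that cut after aspartate and are made as inactive precursors. In the mitochondrial route to apoptosis, cytochrome c released from mitochondria lets Apaf1 assemble into the apoptosome, which activates caspase-9. Caspase-8 starts the route from death receptors, caspase-2 is activated on a platform built by Pidd1, and caspase-6 is an effector that cuts nuclear lamins. Caspase-1 belongs to the inflammatory branch: inflammasomes activate it, and it then cuts gasdermin D, whose freed amino-terminal part makes pores in the plasma membrane. Caspase-12 is a relative of caspase-1 linked to the endoplasmic reticulum. Apaf1, Casp1 and Casp6 are known p53 target genes, and doxorubicin-treated fibroblasts are a common setting in which to study p53.

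The libraries held 50091418 to 66132317 reads in genes. Levels are in CPM, the depth-scaled read counts that the deposited table gives. Pvt1 stood at 16.4, 11.7 and 12.1 CPM with the control guide and at 8.04, 5.93 and 5.40 CPM with sg10, in replicate order, lower in every sg10 library. Myc, the neighbour of Pvt1, stood at 30.4 ± 4.55 and 48.6 ± 5.16 CPM (SD, n = 3 each). Fibroblast markers were present in every library (8 summed to 15590 to 18084 CPM, most of it Col1a1, the highest, Vim and Col1a2). The lowest of them were Pdgfra (means of 36.3 and 30.4 CPM for control guide and sg10) and Dcn (21.1 and 21.5 CPM). All 14 macrophage markers, from Lyz2 to Ptprc, were present as well, and each was higher in both replicate 1 libraries than in the other 4. Their sum was 243 and 388 CPM in replicate 1 (control guide and sg10) and 110 to 138 CPM elsewhere. Of 5 epithelial markers 4 were listed and summed to 2.63 to 5.60 CPM, and of 4 lymphocyte markers only Cd79a was listed. Of 4 endothelial markers 3 were listed and summed to 49.2 to 72.7 CPM, most of it Kdr.

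Gsdmd was the only one whose libraries were separated by the guide, at 12.2 ± 0.0818 CPM with the control guide and 10.1 ± 0.665 CPM with sg10 (SD, n = 3 each). Casp6, Casp8, Casp9, Casp12 and Apaf1 differed between replicate numbers instead, as did 48.6% of all tested genes. For Apaf1 this depended on the fit. Casp1 had 7 to 81 reads per library and was highest where the macrophage markers were. Casp2 was separated neither by guide nor, past the threshold, by replicate number.

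Gene positions are in mm10 from GENCODE M21. Casp1 (ENSMUSG00000025888.5, chromosome 9, 5298517 to 5307265) and Casp12 (ENSMUSG00000025887.10, 5345430 to 5373032) lie in 1 cluster on the plus strand, with Casp4 (5308828 to 5336783) between them. The gaps in this cluster are 1.56 kb and 8.65 kb. Gsdmd (ENSMUSG00000022575.5) is on chromosome 15 from 75862327 to 75867408, Apaf1 (ENSMUSG00000019979.12) on chromosome 10 from 90989311 to 91082770 and Casp9 (ENSMUSG00000028914.13) on chromosome 4 from 141793612 to 141815976. Casp8 (ENSMUSG00000026029.14) is on chromosome 1 from 58795374 to 58847503, Casp6 (ENSMUSG00000027997.9) on chromosome 3 from 129901425 to 129914103, and Casp2 (ENSMUSG00000029863.13) on chromosome 6 from 42264985 to 42282508. Apaf1 is on the minus strand and the other 7 on the plus strand. Casp9 shares 94 bases of exon, 1.81% of its exon bases, with Cela2a and with Ctrc on the opposite strand. The other 7 share no exon base with another annotated gene.

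RefSeq promoter windows of GRCm38.p6, taken here as the 250 bases before the RefSeq start, were found for 7 of the 8 genes, all but Gsdmd. That start can differ from the GENCODE start given above. The Casp8 window (chr1:58802252-58802501) lies inside the GENCODE gene, and those of Casp12 and Apaf1 run past the GENCODE start. The windows of 3 genes with very different levels are printed 5′ to 3′ on the gene's strand: Apaf1 as the most abundant member, and Casp12 and Casp1 as clustered neighbours with different replicate patterns. Capitals mark CG pairs in Apaf1 (chr10:91082744-91082993) and Casp12 (chr9:5345226-5345475), and the E-box in Casp1 (chr9:5298267-5298516), which holds the only CG of that window.
Apaf1: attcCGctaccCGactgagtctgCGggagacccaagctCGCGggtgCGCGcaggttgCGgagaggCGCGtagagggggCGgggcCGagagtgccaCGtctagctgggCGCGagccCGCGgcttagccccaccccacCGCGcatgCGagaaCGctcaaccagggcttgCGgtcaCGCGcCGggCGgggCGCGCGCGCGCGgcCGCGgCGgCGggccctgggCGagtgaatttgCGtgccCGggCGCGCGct
Casp12: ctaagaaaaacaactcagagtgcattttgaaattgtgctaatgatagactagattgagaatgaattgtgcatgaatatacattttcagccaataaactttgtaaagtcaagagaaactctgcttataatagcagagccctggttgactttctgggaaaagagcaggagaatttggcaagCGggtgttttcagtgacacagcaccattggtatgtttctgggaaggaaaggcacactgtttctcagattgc
Casp1: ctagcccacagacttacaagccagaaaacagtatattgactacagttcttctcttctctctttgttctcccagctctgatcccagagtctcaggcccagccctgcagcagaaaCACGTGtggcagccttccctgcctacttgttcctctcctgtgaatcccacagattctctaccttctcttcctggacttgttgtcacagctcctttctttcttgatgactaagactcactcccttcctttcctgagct

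The Apaf1 window has 42 CG pairs and 75.6% G and C, against medians of 6 and 52.4% over all 32851 windows of this length. Those of Casp9 (25), Casp2 (17) and Casp6 (11) also have more CG pairs than that median. The windows of Casp8 (5), Casp12 (1) and Casp1 (1) have fewer. The E-box CACGTG, the site known for Myc and its relatives and the same on both strands, is in 1 of the 7 windows (Casp1) and in 6.02% of all windows. The p53 decamer motif, also the same on both strands, is in 0 of the 7 and in 7.13% of all windows. These matches say which letters are there and nothing of what binds.

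Levels of different genes are compared per kilobase of exon (CPM divided by the length of all annotated exons of the gene). Apaf1 was the highest at 11.9, with a range over the 6 libraries of 11.01 to 12.8. Casp8 followed at 9.70 (8.53 to 10.6), then Gsdmd at 4.68 (4.06 to 5.15). Casp6 at 2.91 (2.47 to 3.61), Casp9 at 2.83 (2.55 to 3.21) and Casp12 at 2.24 (1.52 to 3.65) overlapped. Casp2 at 1.01 (0.863 to 1.18) and Casp1 at 0.288 (0.0798 to 0.818) were the lowest. Neighbours in this order did not overlap in range except Casp6, Casp9 and Casp12. The order rests on the annotated exon length, and shorter transcripts of a gene would raise its value.

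**Figure D1:**
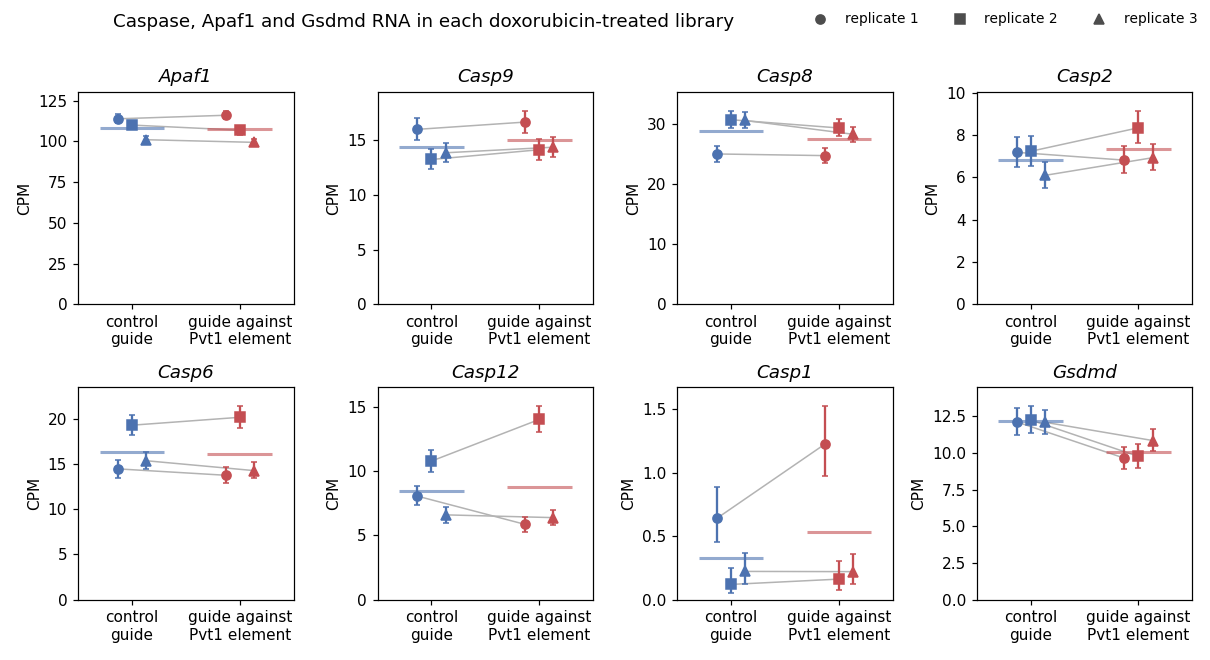
RNA level in CPM of each of the 8 genes in the 6 libraries, by guide. Points are libraries with exact Poisson 95% intervals of their reads, marker shapes give the replicate number, grey lines join pairs and bars are group means. Gsdmd is the only gene in which all 3 sg10 libraries (9.64 to 10.8 CPM) lie below all 3 control libraries (12.1 to 12.2 CPM).

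Gsdmd encodes the pore-forming protein at the end of the inflammatory route. It stood at 12.1, 12.2 and 12.1 CPM with the control guide and at 9.64, 9.76 and 10.8 CPM with sg10, in replicate order. These values rest on 700, 718 and 818 reads, and on 638, 545 and 789 reads. The groups did not overlap, and the control libraries lay closer together than the sg10 libraries. Within pairs, sg10 stood at 0.795, 0.797 and 0.897 times the control. The log2 fold change, on log2(CPM + 0.5) as throughout, was −0.26 (SE 0.0787). Each SE given here is from a fit on guide alone and so includes the spread between replicate numbers. Counting error alone lets some libraries of the groups overlap: the exact Poisson 95% interval was 11.2 to 13.1 CPM for control replicate 1 and 10.1 to 11.6 CPM for sg10 replicate 3. The intervals cover counting error only. Among all 14440 tested genes, 1.47% were lower in all sg10 libraries than in all control libraries. No member was higher in all sg10 libraries than in all control libraries, where 2.15% of all tested genes were. As the genes were chosen with these values known, nothing is read from either share.

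Across replicate numbers Gsdmd did not differ detectably (means of 10.88, 11.004 and 11.47 CPM for replicates 1, 2 and 3; moderated F test in limma, adjusted p = 0.673). The guide held 86.3% of the sum of squares of its 6 log2 values and replicate number 6.09%. Over all tested genes the medians were 3.94% and 80.5%. Gsdmd was chosen with these libraries in view, so nothing is read from its shares beside those medians. Its log2 fold change lay between −0.31 and −0.23 in all 18 alternatives, which reuse the same libraries. The macrophage marker sum, high in both replicate 1 libraries, was not mirrored by Gsdmd, whose replicate 1 value was the middle one of 3 with the control guide and the lowest with sg10.

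Apaf1 encodes the scaffold of the apoptosome. Its level was 114, 110 and 101 CPM with the control guide and 116, 107 and 99.4 CPM with sg10. Under both guides replicate 1 was the highest and replicate 3 the lowest, and the groups overlapped. The log2 fold change was −0.01 (SE 0.0794), with 1 of 3 pairs higher and 2 lower. The difference between replicate numbers passed the threshold (limma moderated F test, adjusted p = 0.00575) but not without the trend in the variance (adjusted p = 0.0857). Casp9 encodes the initiator caspase that the apoptosome activates. Its level was 16.0, 13.3 and 13.9 CPM with the control guide and 16.7, 14.1 and 14.4 CPM with sg10. It was highest in replicate 1 and differed between replicate numbers (limma moderated F test, adjusted p = 0.0253). In all 3 pairs sg10 was slightly higher, at 1.04, 1.07 and 1.04 times the control, with a log2 fold change of 0.07 (SE 0.105). That SE includes the spread between replicate numbers, which held 90.8% of the sum of squares of Casp9. Of all tested genes 14.4% were higher in 3 of 3 pairs, and the groups of Casp9 overlapped.

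Casp8 encodes the initiator caspase of death receptor signalling. Its level was 25.0, 30.7 and 30.5 CPM with the control guide and 24.7, 29.3 and 28.2 CPM with sg10. Replicate 1 was the lowest under both guides, the reverse of Casp9, and the replicate numbers differed (limma moderated F test, adjusted p = 0.00398). Each pair was slightly lower with sg10, at 0.989, 0.955 and 0.925 times the control, with a log2 fold change of −0.06 (SE 0.108). Lower values in 3 of 3 pairs were found for 14.4% of all tested genes. Casp2, activated on the Pidd1 platform, stood at 7.18, 7.23 and 6.09 CPM with the control guide and at 6.81, 8.35 and 6.93 CPM with sg10. Its groups overlapped, the pairs did not share a direction, and the log2 fold change was 0.10 (SE 0.120). The replicate numbers of Casp2 were not told apart (limma moderated F test, adjusted p = 0.154).

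Casp6 encodes an effector caspase. Its level was 14.5, 19.3 and 15.4 CPM with the control guide and 13.8, 20.2 and 14.3 CPM with sg10. Replicate 2 stood out under both guides, and its mean was 1.40 times that of replicate 1 (limma moderated F test over replicate numbers, adjusted p = 4.70e-04). Replicate number held 96.4% of its sum of squares and the guide 0.761%. The log2 fold change was −0.04 (SE 0.177).

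Casp12 showed the widest spread among the 7 genes that passed the filter on low values. Its level was 8.05, 10.8 and 6.59 CPM with the control guide and 5.85, 14.02 and 6.38 CPM with sg10. Replicate 2 was again the highest under both guides, and its mean was 1.91 times that of replicate 3 (limma moderated F test, adjusted p = 0.00941). The pairs went in different directions, at 0.726, 1.30 and 0.967 times the control. The log2 fold change of −0.04 (SE 0.346) is therefore a mean over opposite pairs. It was 0.18 without sg10 replicate 1 and −0.42 without sg10 replicate 2. The neighbouring gene Casp4, the inflammatory caspase that also cuts gasdermin D, was also highest in replicate 2 under both guides, with 2.65, 3.26 and 1.48 CPM under the control guide and 2.09, 4.14 and 1.22 CPM under sg10. The replicate numbers differed for Casp4 as well (limma moderated F test, adjusted p = 3.06e-04).

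Casp1, the inflammasome caspase, stood at 0.641, 0.119 and 0.222 CPM with the control guide and at 1.22, 0.161 and 0.220 CPM with sg10. These are 37, 7 and 15 reads, and 81, 9 and 16 reads. Both replicate 1 libraries were higher than the other 4, and sg10 replicate 1 was the highest. Casp1 reached 0.5 CPM in these libraries alone and so did not pass the filter, which asked for that level in at least 3. Fitted without the filter, it differed between replicate numbers (limma moderated F test, adjusted p = 2.65e-04, where 44.2% of all genes passed). The log2 fold change between guides in that fit was 0.23 (SE 0.412). The 14 macrophage markers were high in the same libraries and highest in the same one. Their part in the Casp1 value was not tested, and in bulk RNA more cells of a type and more RNA per cell cannot be told apart. Casp1 did not share the pattern of its cluster neighbours Casp4 and Casp12, which were highest in replicate 2.

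**Figure D2:**
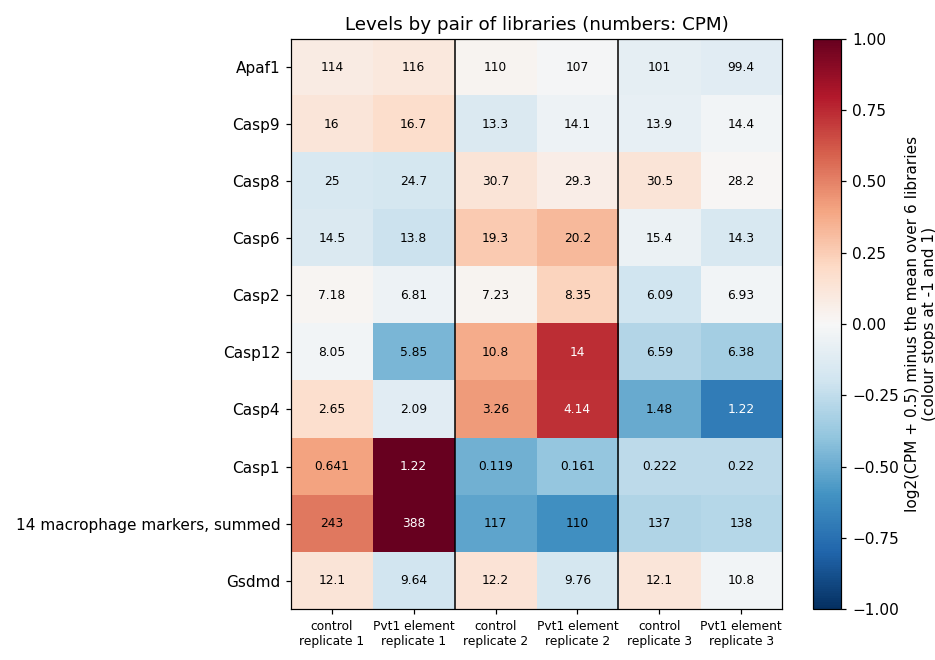
Colour shows log2(CPM + 0.5) minus the gene's mean over the 6 libraries, with each CPM value printed in its cell, for the 8 genes, Casp4 and the summed macrophage markers. Columns are libraries grouped by pair. Casp1 and the macrophage markers are highest in the replicate 1 columns, Casp6, Casp12 and Casp4 in the replicate 2 columns, and Gsdmd alternates between the guides.

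Of the 8 genes 7 passed the filter on low values. By limma 0 of 7 passed an adjusted p of 0.05 (background 0%), 1 of 7 had an unadjusted p under 0.05 (Gsdmd; 0.346% of all tested genes), and edgeR on recovered reads gave the same 0 and 1. With replicate number as a block, 0 of 7 passed, where 0.0346% of all tested genes did. The genes were chosen with this contrast in view, so nothing is read from these counts beside their backgrounds. Without the block no tested gene passed, Pvt1 and Myc included, and whether they passed with the block is not given here. Of the 7, 2 had a fold change above 0 and 5 below, with a median log2 fold change of −0.04 beside −0.000399 for all tested genes. For replicate number, 5 of the 7 passed the F test (Casp6, Casp8, Casp9, Casp12 and Apaf1), against 48.6% of all tested genes. The genes were chosen with the 6 libraries of this test in view, so the share is not independent of the choice. Without the trend in the variance 4 of 7 passed, where 4576 of the 14440 tested genes did, fewer than the 7022 with the trend. The 48.6% is therefore not the background of these 4, and nothing is read from them.

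**Figure D3:**
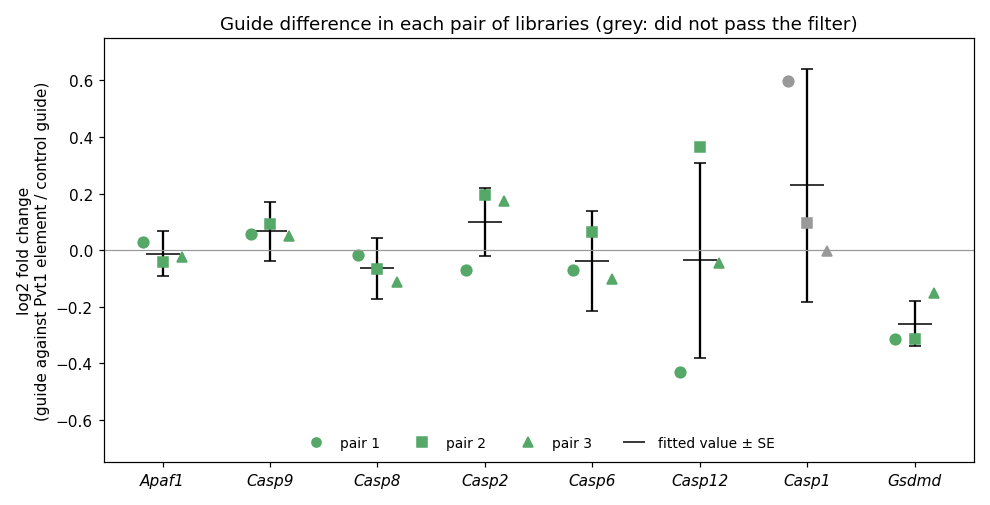
Log2 fold change of sg10 over the control guide on log2(CPM + 0.5), for each pair of libraries (symbols) and fitted over all 6 (black line with SE), for the 8 genes. Gsdmd lies below 0 in every pair (−0.32, −0.31 and −0.15), Casp9 slightly above and Casp8 slightly below in every pair, and the pairs of Casp12 point both ways (−0.43, 0.36 and −0.04). Casp1, in grey, did not pass the filter.

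**Figure D4:**
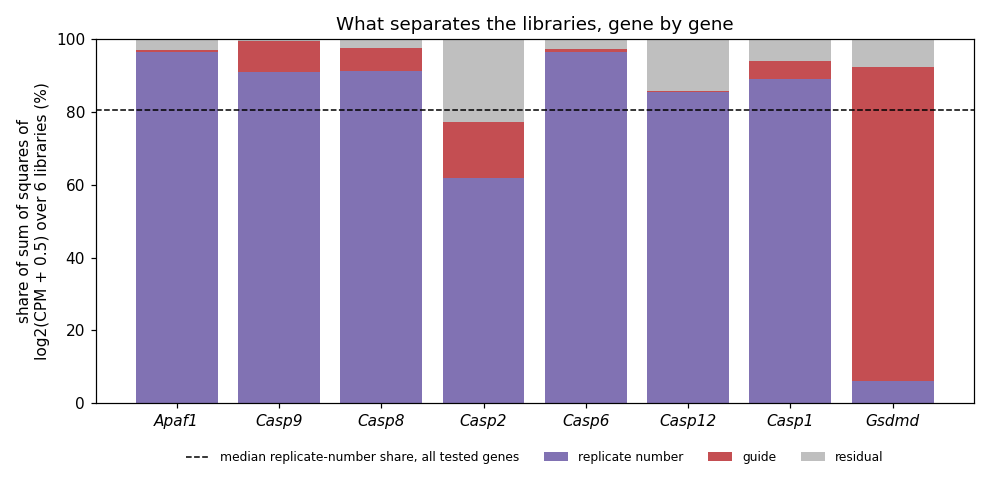
Share of the sum of squares of log2(CPM + 0.5) over the 6 libraries held by replicate number, guide and residual, for each gene, with the median replicate-number share of all tested genes (80.5%) as a dashed line. Replicate number holds the larger part for 7 genes, from 61.8% for Casp2 to 96.4% for Casp6, and the guide holds 86.3% for Gsdmd.

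The partners of these genes were read from 7 lists of the pathway, ordered by role, with up to 3 genes of the highest mean level named from each. Of 50 listed genes 44 were in the table and 41 passed the filter. None of the 41 passed the guide test by limma with or without the block, or by edgeR. At an unadjusted p under 0.05 there were 0 without the block (0.346% of all tested genes), 0 by edgeR and 3 with the block. For the block the share of all tested genes is not given here, so nothing is read from the 3. Of the 41, 20 had a fold change above 0 and 21 below, and their median log2 fold change was −0.000384. For replicate number 18 of 41 passed, 43.9%, near the background given above.

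In the list of apoptosome partners and caspase inhibitors, Birc6, a giant inhibitor of apoptosis proteins family member, stood at 101 ± 23.6 and 114 ± 38.1 CPM (SD, n = 3 each). Cycs, the cytochrome c that binds Apaf1, stood at 104 ± 13.4 and 101 ± 9.06 CPM, and Xiap, an inhibitor of caspase-9, at 51.2 ± 3.31 and 49.9 ± 2.17 CPM (SD, n = 3 each). The fold changes of the 8 tested genes in this list ran from −0.09 to 0.15 on the log2 scale.

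In the death receptor list, the receptor genes Tnfrsf1a (170 ± 14.6 and 165 ± 16.4 CPM, SD, n = 3 each) and Tnfrsf10b (126 ± 10.3 and 126 ± 16.0 CPM) were abundant. So was Cflar, the regulator of caspase-8 known as FLIP (163 ± 26.8 and 160 ± 39.8 CPM). Pidd1, a p53 target that activates caspase-2, stood at 77.1 ± 13.01 and 84.6 ± 12.9 CPM (SD, n = 3 each), higher with sg10 in 3 of 3 pairs, with a log2 fold change of 0.14 (SE 0.156). Its partner Cradd stood at 1.63 ± 0.175 and 1.80 ± 0.309 CPM. In replicate order, Pidd1 stood at 92.1, 70.0 and 69.2 CPM with the control guide and at 94.8, 89.0 and 70.1 CPM with sg10. The rise was thus largest in pair 2. Its SDs and SE include the spread between replicate numbers. Of all tested genes 14.4% were higher in 3 of 3 pairs.

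Few parts of the inflammasome were abundant, and 4 of its 11 listed genes, among them Il1b, were not in the table. Nek7, a kinase that binds Nlrp3, stood at 89.7 ± 5.43 and 85.1 ± 2.54 CPM, and Ninj1, which ruptures the plasma membrane after gasdermin pores form, at 86.8 ± 3.04 and 86.4 ± 6.52 CPM (SD, n = 3 each). The adaptor gene Pycard stood at 6.55 ± 0.430 and 6.52 ± 1.09 CPM. The sensor genes Nlrp3 (0.362 and 0.342 CPM) and Nlrc4 (0.140 and 0.242 CPM) did not pass the filter, as Casp1 did not. Il1b, Nlrp3 and Nlrc4 were named after the table was seen. Per kilobase of exon, the mean level of Gsdmd (4.68) stood above those of Casp1 (0.288) and Casp4 (0.666), inflammatory caspases that cut it. Gsdmd stood below Casp8 (9.70).

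Of the other gasdermins, Gsdme, listed under its older name Dfna5, stood at 3.18 ± 0.428 and 3.23 ± 0.399 CPM (SD, n = 3 each). It had a log2 fold change of 0.02 (SE 0.140), and its groups overlapped. The necroptosis genes Ripk3 (86.4 ± 12.1 and 87.5 ± 7.43 CPM) and Mlkl (28.7 ± 1.77 and 28.7 ± 2.29 CPM) had log2 fold changes of 0.02 and −0.00468. Among caspase substrates, Lmna, the lamin gene, stood at 858 ± 95.6 and 856 ± 77.8 CPM, Acin1, a factor of chromatin condensation, at 109 ± 2.82 and 114 ± 8.96 CPM, and Rock1, a kinase of membrane blebbing, at 71.3 ± 7.11 and 69.5 ± 5.13 CPM (SD, n = 3 each). In 3 of the 41 genes the groups did not overlap, against 3.61% of all tested genes: Htra2 and Bid were higher with sg10, and the channel gene Panx1 was lower. These 3 were named after their values were seen.

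The genes whose log2 level over the 6 libraries was most like each member, among those with a mean of at least 5 CPM, were listed by Pearson's r as a description. All the genes share the same 6 libraries, in which replicate number dominates. For Gsdmd they were Frk (r = 0.964, 23.9 and 20.9 CPM for control guide and sg10) and Styx (r = 0.952, 6.30 and 5.35 CPM). For Casp1 they were Anpep (r = 0.9997) and Plek (r = 0.998). Casp2 was most like Rab3a (r = 0.986) and Fv1 (r = 0.979), Casp6 like Hoxb9 and Spin1 (both r = 0.998), and Casp8 like Hist1h3b (r = 0.994) and Mtfr1 (r = 0.992). Casp9 was most like Ddx19b (r = 0.995) and Polg (r = 0.994), Casp12 like Tmem98 (r = 0.996) and Dcaf8 (r = 0.993), and Apaf1 like Tipin and Atp6v0d1 (both r = 0.996). Among the members themselves, Casp1 and Casp9 (r = 0.959) and Casp6 and Casp12 (r = 0.940) were the most alike, and Casp8 and Casp9 the most opposed (r = −0.981). The r of Gsdmd with the other 7 lay between −0.44 and 0.34.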

How the data were processed

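The deposited values are CPM per gene and library, made by the authors with edgeR per the file headers. The submitters' processing notes name edgeR 3.22.3, HTSeq 0.6.1, StringTie 1.2.4, TopHat2 2.0.14 and build mm10, with no role or order; a gene filter and a strand setting are not given in the sources used here. Libraries came from polyadenylated RNA with a stranded kit, per the labels' protocols. Of 16427 rows, 2 collect reads of no gene (0.543% to 1.58% ambiguous and 8.06% to 8.94% outside genes) and were removed. The 6 pseudo-count columns were not used. Whole reads were recovered from the steps between low CPM values, and 100% of values came out whole within 0.01 reads.

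The 14440 genes that reached 0.5 CPM in 3 or more libraries were fitted with limma 3.58.1 (trend, robust) on log2(CPM + 0.5), guide alone (4 residual degrees of freedom), with a Benjamini-Hochberg threshold of 0.05 over all genes. The F test of replicate number had guide as a covariate. Equal replicate numbers pair the libraries: their deviations from group means correlated at 0.869, 0.739 and 0.817, and other pairs at most at 0.203. The scripts were tested on simulated data. The members, lists and tests were chosen with earlier results of these data known. Named genes are the members, up to 3 genes of highest mean CPM per list, for each member the 2 most alike genes (mean level 5 CPM or more), Pvt1 and Myc; 2 genes that this rule names are not reported here, and Il1b, Nlrp3, Nlrc4, Htra2, Bid, Panx1 and the marker genes are named outside it. Each p-value sets a difference against the spread between these libraries that its own fit leaves over. In the fit on guide alone that spread includes the differences between replicate numbers. Alternatives were other scalings, filters, pseudocounts, limma without trend, edgeR 4.0.16, the block and each library left out.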

Additional observations from a re-analysis of the deposited data

How the results depend on the processing

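With no block, the count of genes passing the guide test stayed at 0 under every alternative, including each library left out (0 to 0). With the replicate block it was 5, and with the replicate block and replicate 1, 2 or 3 left out 8, 160 and 9, from fits with fewer residual degrees of freedom; none of the 7 tested members passed in any of their 126 comparisons with an alternative. The number of genes that differed between replicate numbers was 7022, and 4576 by limma without trend; the cause was not tested. Apaf1 lost its replicate-number call there (adjusted p = 0.0857). Of the 126 fold changes, 13 had the opposite sign to the reported one, over 5 genes. Those of Casp6 changed sign without control replicate 2 (0.08) or sg10 replicate 1 (0.06) or 3 (0.04), and that of Casp8 without sg10 replicate 1 (0.00814). Casp9 turned without the same library (−0.00677). Apaf1 turned without control replicate 1 (0.02) or sg10 replicate 3 (0.04), and in the block without replicate 2 (0.00207). Casp12 turned by edgeR (0.04), without control replicate 2 (0.14), sg10 replicate 1 (0.18) or 3 (0.12), and in the block without replicate 1 (0.16). Those of Gsdmd and Casp2 did not change sign. Casp1 rests on 7 to 81 reads per library. Pathway genes passing the guide test stayed at 0 with the replicate block and with a pseudocount of 1. Without the block Pvt1, lower in every sg10 library, did not pass either, nor did Myc. A count of 0 therefore does not show that a gene is unchanged.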
